A study of Mus musculus with 24 samples.

Results

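Bone marrow of male Erfe-/- mice was compared 48 h after phlebotomy with marrow at 0 h, with 4 arrays from 4 mice at each time, 8 of the 24 arrays of the series. The members were chosen by sample label alone, so all measured genes are described. The mice at 0 h were labelled as controls, and the mice at 48 h had been bled by puncture of the retro-orbital sinus. Both groups carried the Erfe-/- genotype, that is, no intact gene for erythroferrone, a hormone of erythroblasts. Mice with an intact gene were not analysed here. Age, genetic background and the volume of blood drawn are not given in the sources used here. RNA of whole marrow was labelled with Cy3 and hybridised to single-colour Agilent gene expression arrays, which read the transcripts of most mouse genes through short probes.

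Bleeding lowers the delivery of oxygen to the kidney, which then secretes erythropoietin. The hormone binds its receptor on erythroid progenitors and early erythroblasts and acts through the transcription factor STAT5, whose targets include Cish, Pim1 and Podxl. Erythroblasts take up iron through the transferrin receptor, make haem and globin, divide several times and lose their nucleus. Marrow also holds granulocytes, monocytes, B cells, some T cells, basophils and stroma, so its RNA reflects the shares of these cells as well as the activity of each. In bulk tissue, fewer cells of a type and less RNA per cell cannot be told apart.

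A level is given in log2 units above or below the array's own 75th percentile of signal, and a change is the mean level at 48 h minus the mean level at 0 h, so a change of 1 is a 2-fold increase. On marrow arrays this percentile ranged from 715.0 to 954.7 intensity units. Spearman correlations between pairs of the 8 arrays were at least 0.982. Precision is limited by having 4 arrays at each time, and the median SE of a change was 0.13. The arrays lay on 3 slides, each holding both times. Both Erfe probes stayed at background on all 8 arrays; which part of the gene was deleted is not given in the sources used here. Hepatocyte genes were used as a check for other tissue: 9 of the 14 were measured, and their summed signal was 28.3 to 34.2 times the percentile at 0 h and 21.1 to 26.7 times at 48 h. It reached 1688 on 24 h replicate 2, which enters the 24 h changes, the filter on dim probes and the shared estimate of the spread. Skeletal muscle genes summed to 2.97 to 3.51 at 0 h and 2.81 to 5.94 at 48 h.

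Marrow at 48 h differed from marrow at 0 h mostly by increases. Of 21381 genes tested with limma, 227 rose and 37 fell at a Benjamini-Hochberg adjusted p below 0.05, which is 1.06% and 0.173% of the genes. Without adjustment, 3430 genes had p below 0.05. The 4 arrays at 48 h lay all above the 4 at 0 h for 1695 genes (7.93%) and all below for 981 (4.59%), so 63.3% of the separated genes were higher. With background correction by normexp this share was 49.5%, with quantile normalisation 56.8% and with the authors' deposited values 56.2%. Of the called genes, 262 of 264 had separated groups.

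Most called changes were small. Among the 227 raised genes the median change was 0.63, 64 changed by less than 0.5, 116 by 0.5 to 1, 30 by 1 to 2 and 17 by more than 2. Among the 37 lowered genes the median was -0.68, and 5 fell at least 2-fold against 47 that rose at least 2-fold. Of the raised genes 8 were above background on no array at 0 h, so their fitted sizes rest on background signal. The rises and falls of at least 2-fold numbered 24 and 5 with normexp and 33 and 2 with the authors' deposited values. Among genes above background on all 12 marrow arrays they numbered 33 and 4. The median level at 0 h was 0.70 for the raised genes, -1.18 for the lowered genes and -0.34 for all genes tested. The number of calls depended on single arrays: leaving out each of the 8 arrays in turn gave 89 to 207 raised and 9 to 29 lowered genes, with the lowest counts without 48 h replicate 2. The raised genes numbered 119 or fewer without any single one of 0 h replicates 1 to 3 or 48 h replicates 1, 2 and 4. Without 24 h replicate 2, 294 rose and 86 fell. In all 8 of these fits 85 raised and 7 lowered genes were called, the lowered ones with plain names being Bmp4, Cd200r3, Ltbp2, Mcpt8, Pdcd1 and Vegfc.

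**Figure D1:**
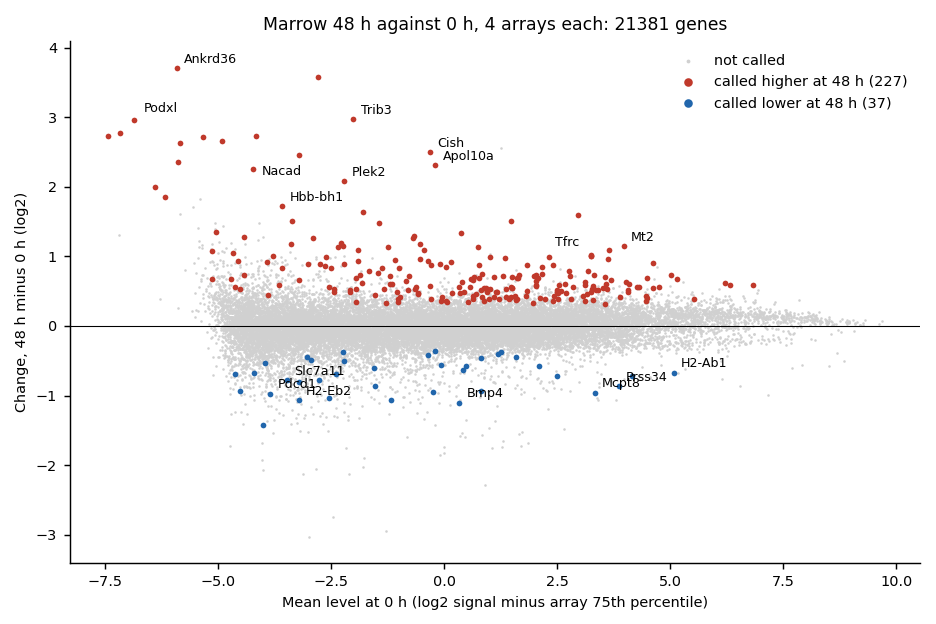
Change from 0 h to 48 h (log2, vertical axis) against the mean level at 0 h (log2 signal minus the array 75th percentile, horizontal axis) for 21381 genes in marrow. Each point is a gene; 227 called higher are red and 37 called lower are blue. Red points reach changes above 2, while no blue point lies further down than -1.42.

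The same fit gives the change at 24 h against the same 0 h arrays. The genes raised at 48 h had a median change of 0.43 at 24 h, and 188 of the 227 had a larger change at 48 h. The genes lowered at 48 h had a median of -0.52 at 24 h, and 25 of the 37 had a larger decrease at 48 h. Without 24 h replicate 2 the 24 h medians were 0.44 and -0.48, and 180 and 30 genes had the larger change at 48 h. Both comparisons share the 0 h arrays, so the values stand side by side and are not independent. The genes were also chosen by their change at 48 h, which favours a larger change at that time. The counts therefore describe that choice, and growth from 24 to 48 h was not tested.

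Targets of erythropoietin and STAT5 held some of the largest increases. Cish, an inhibitor that feeds back on cytokine receptors, is read by a probe at chr9:107204196-107204255 (mm9). Its level at 0 h was -0.22, -0.61, -0.25 and -0.12 on replicates 1 to 4, and at 48 h it was 1.95, 2.47, 2.39 and 1.98. All 4 arrays at 48 h lay more than 2 units above the highest at 0 h, and the change was 2.50 ± 0.15 (SE; limma adjusted p = 1.35e-05; exact permutation p = 0.0286, the smallest that 4 against 4 arrays allow). Pim1, a kinase that promotes survival, stood at 3.78, 3.41, 3.60 and 3.75 at 0 h and at 4.47, 4.85, 4.57 and 4.48 at 48 h. Its groups did not overlap and it rose by 0.96 ± 0.12 (limma adjusted p = 0.00324). Podxl, a sialomucin, was well above background on all 4 arrays at 48 h and on none at 0 h, and was at least 2.52-fold higher. Its probe passed the filter on dim probes only through groups of bled mice. The rest of this list did not pass: 3 of its 14 measured genes rose and none fell, against 1.06% and 0.173% of all genes. Its median was 0.10, against 0.00 over all genes. Among genes above background on all 12 marrow arrays, 2 of the 3 calls remained, without Podxl. The list median at 24 h was 0.12, or 0.18 without 24 h replicate 2.

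Genes of early erythroblasts were higher at 48 h, with changes above 0 for 20 of 20. The median change was 0.44, 5 of the 20 rose and none fell, and 8 had separated groups. Over all genes tested, 1.06% rose, 7.93% were separated upwards and 10746 of 21381 had changes above 0. Tfrc, the transferrin receptor, is read by a probe at chr16:32632255-32632314 (mm9). It stood at 3.11, 3.23, 3.22 and 3.42 at 0 h and at 4.30, 4.52, 4.01 and 4.24 at 48 h. The groups did not overlap, and the rise was 1.02 ± 0.13 (limma adjusted p = 0.00324). Rhag, which encodes the Rh-associated glycoprotein of the red cell membrane, stood at 1.82, 2.20, 2.16 and 2.44 at 0 h and at 2.90, 3.11, 2.67 and 2.91 at 48 h, a rise of 0.74 ± 0.14 (limma adjusted p = 0.0357). The array at 0 h that came nearest to those at 48 h was replicate 4, and the nearest at 48 h was replicate 3.

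The other raised members were Add2, a part of the membrane skeleton (change 0.70), Cldn13, a claudin of mouse erythroblasts (0.66), and Icam4, an adhesion molecule of the red cell (0.59). Car2, carbonic anhydrase, had a change of 0.47 and Rhd one of 0.37, neither called. Apart from Tfrc, these calls rested on the full set of arrays. Rhag, Add2 and Cldn13 lost significance when 0 h replicate 1, 2 or 3 or 48 h replicate 1, 2 or 4 was left out, and Icam4 also without 48 h replicate 3, with adjusted p up to 0.169. With the slide as a block 1 of the 5 calls held, that of Tfrc, and with the mean of a gene's probes Add2 and Icam4 were lost. Averaged over the list, the arrays of the 2 times overlapped: 0 h replicate 4 lay 0.27 above the mean at 0 h and 48 h replicate 3 lay 0.20 above it, the other arrays at 48 h reaching 0.66.

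Late erythroblast and reticulocyte genes had a median change of 0.38, with 23 of 25 above 0. Of the 25, 7 were separated upwards, against 7.93% of all genes. None of the 25 passed the test in either direction. The adult globins on this list, which marrow holds at very high signal, were close to 0: Hba-a1 had a change of 0.03 ± 0.10, Hbb-bt 0.01 ± 0.10 and Hbb-b1 0.13 ± 0.15. Ahsp, which encodes the chaperone of alpha globin, had a change of 0.38. The medians of the early and late lists at 24 h were 0.12 and 0.02.

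Among erythroid transcription factors, the median change of 15 genes was 0.30 and all 15 lay above 0. Tal1, needed for the formation of all blood lineages and for erythroid maturation, rose from 3.92, 3.94, 4.05 and 4.18 to 4.74, 4.84, 4.55 and 4.48, a change of 0.63 ± 0.11 (limma adjusted p = 0.0202). It lost significance without 0 h replicate 1, 2 or 3 or 48 h replicate 1 or 2, and with the slide as a block (adjusted p = 0.0804). Gata1 had a change of 0.54 ± 0.14 and Klf1 of 0.49 ± 0.13, with limma adjusted p of 0.0877 and 0.0992.

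All 13 measured haem synthesis genes had changes above 0, with a median of 0.48, 4 raised, none lowered and 8 separated upwards. The shares over all genes were 1.06% raised and 7.93% separated upwards. Among the raised genes, Alad, which makes porphobilinogen, had a change of 0.56. Cpox acts later, in mitochondria (0.69), and Abcb6 is a porphyrin transporter (0.54). Alas2, the first and rate-limiting enzyme in erythroid cells, had levels of 6.45, 6.63, 6.68 and 7.12 at 0 h and of 6.97, 7.10, 6.64 and 6.91 at 48 h. These overlap, and its change was 0.18 ± 0.16 (limma adjusted p = 0.614). All 4 calls were lost without 0 h replicate 1, 2 or 3 or 48 h replicate 1 or 2, and all 4 held without 0 h replicate 4. Without 48 h replicate 4 only 1 held, and without 48 h replicate 3 Alad was lost. With the slide as a block 0 of the 4 held (adjusted p up to 0.122), and with the mean of a gene's probes Cpox was lost.

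Genes of iron uptake and storage other than Tfrc did not pass the test: 1 of 16 rose, against 1.06% of all genes, and the median was 0.08. That median was -0.00 with quantile normalisation and with the authors' deposited values, so it has no settled sign.

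**Figure D2:**
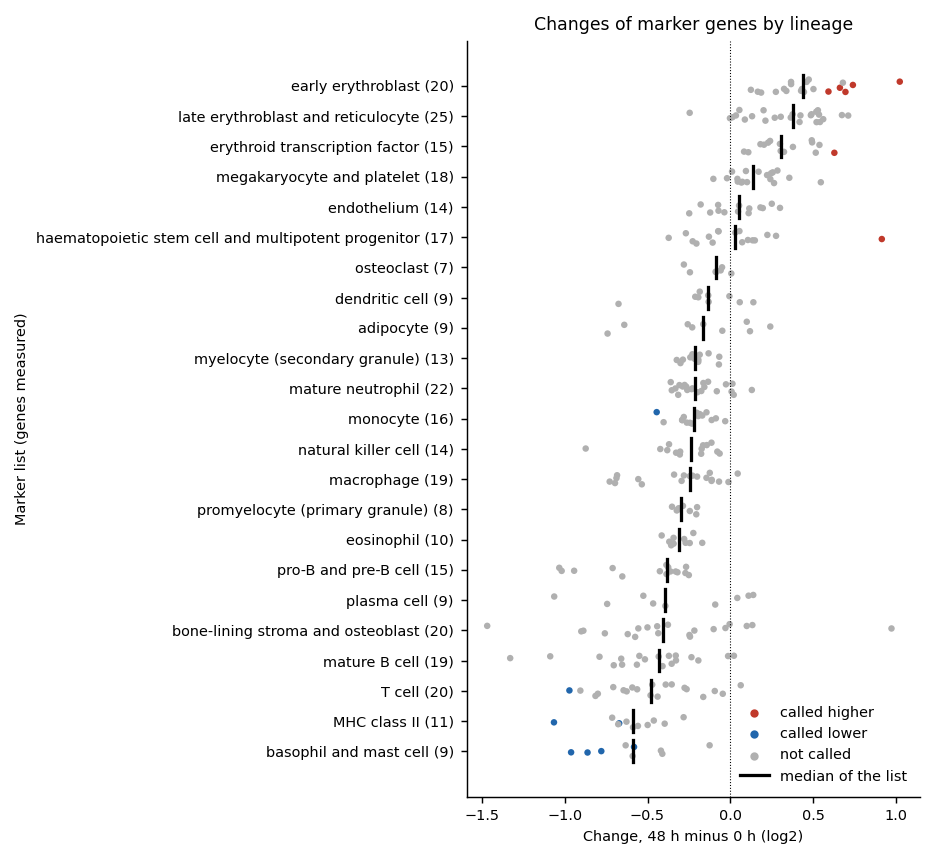
Change from 0 h to 48 h (log2, horizontal axis) of each measured marker gene, by marker list (vertical axis, number of measured genes in brackets). Points are genes, red where called higher, blue where called lower and grey where not called; black bars are list medians, from 0.44 for early erythroblasts to -0.59 for MHC class II and for basophils and mast cells.

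Hbb-bh1, an embryonic beta-like globin that adult marrow makes only in traces, stood at -3.42, -3.85, -3.74 and -3.28 at 0 h and at -1.96, -2.26, -1.23 and -1.95 at 48 h. The groups were more than 1 unit apart, and it rose by 1.72 ± 0.26 (limma adjusted p = 0.00872). Of the 7 measured globin genes it was the 1 called, against 1.06% of all genes raised, and the median of the family was 0.04. Both the gene and the family were added after values were seen. Hbb-y, another embryonic globin, changed by 0.84 to 1.20 when single arrays were left out and was called in none of the 8 fits. Globin genes are near copies of each other, and whether their probes bind more than 1 transcript was not tested.

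Genes of DNA replication were higher as a group, with all 29 above 0, a median of 0.28 and 21 separated upwards, against 7.93% of all genes. Of the 29, 2 rose, against 1.06% of all genes. The 2 included Orc1 (0.70), a subunit of the origin recognition complex. Both calls were lost without 0 h replicate 1, 2 or 3 or 48 h replicate 1 or 2, as they were with the slide as a block, and 1 of the 2 held without 0 h replicate 4. All 30 genes of mitosis lay above 0 as well, with a median of 0.19, 8 separated upwards and 0 called. Both list means separated the 4 arrays at 48 h from the 4 at 0 h.

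The integrated stress response was another group with raised members. In this response, shortage of amino acids or of haem leads to phosphorylation of eIF2, which slows protein synthesis and favours translation of the factor ATF4. ATF4 in turn raises genes of amino acid supply, tRNA charging and one-carbon metabolism. Of 28 measured genes of the list 6 rose and 1 fell, against 1.06% and 0.173% of all genes, with a median of 0.23. Of the families added after values were seen, which therefore support nothing by their direction, cytosolic aminoacyl-tRNA synthetases had 10 of 21 raised, with a median of 0.38 and 18 separated upwards. The folate one-carbon genes had 7 of 18 raised (median 0.37), and the eIF2 and eIF2B subunits 3 of 8 (median 0.30), of which 0 to 2 held when an array was left out, none without 48 h replicate 2, and 1 with the slide as a block. None of these 3 families had a lowered member. The share of all genes separated upwards was 7.93%.

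These 4 upstream windows are shown because they hold the letters TGATGNAA, the core of the ATF4 site, in genes of this response. They cover the 250 bases before the start of transcription (RefSeq, GRCm38.p6), printed on the strand of the gene, and were picked after the values were seen. Matches on either strand are in capitals. A match on the opposite strand appears as the reverse complement, such as TTGCATCA. Asns, Aars and Tars rose, and Slc7a11 fell.
Asns, chr6:7693210-7693459, minus strand: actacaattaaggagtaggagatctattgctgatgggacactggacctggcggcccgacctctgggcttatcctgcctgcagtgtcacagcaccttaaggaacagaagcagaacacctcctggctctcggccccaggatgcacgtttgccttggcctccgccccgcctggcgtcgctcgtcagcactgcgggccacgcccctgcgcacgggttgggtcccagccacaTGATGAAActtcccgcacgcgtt
Aars, chr8:111033592-111033841, plus strand: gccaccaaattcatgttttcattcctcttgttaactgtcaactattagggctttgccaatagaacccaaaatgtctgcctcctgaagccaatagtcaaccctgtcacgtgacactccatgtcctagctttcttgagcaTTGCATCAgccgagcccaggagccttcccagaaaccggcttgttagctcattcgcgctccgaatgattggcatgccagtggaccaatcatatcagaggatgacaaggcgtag
Tars, chr15:11399659-11399908, minus strand: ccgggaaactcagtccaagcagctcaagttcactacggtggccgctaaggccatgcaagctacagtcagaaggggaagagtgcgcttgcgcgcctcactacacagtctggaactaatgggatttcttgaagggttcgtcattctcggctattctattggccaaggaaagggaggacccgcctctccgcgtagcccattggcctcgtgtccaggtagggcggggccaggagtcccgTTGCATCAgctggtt
Slc7a11, chr3:50443614-50443863, minus strand: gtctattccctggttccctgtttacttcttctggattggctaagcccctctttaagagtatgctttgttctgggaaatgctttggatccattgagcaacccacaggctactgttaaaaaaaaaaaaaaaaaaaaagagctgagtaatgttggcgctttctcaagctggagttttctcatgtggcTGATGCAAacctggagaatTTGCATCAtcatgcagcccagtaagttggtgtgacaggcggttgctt

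The first base of these letters lay 23 bases before the start in Asns, 112 in Aars, 15 in Tars, and 66 and 47 in Slc7a11. Searched on both strands, TGATGNAA was present in 2.34% of the 15845 windows of tested genes, in 4.52% of the 199 windows of raised genes and in 5.71% of the 35 windows of lowered genes. Of the tested genes, 12533 of 21381 matched a window by symbol. In the integrated stress response list 8 of 25 genes with a window held the letters, of which 3 were called. A match describes the sequence and says nothing about binding.

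Trib3, a pseudokinase induced by ATF4 that limits the response, is read by a probe at chr2:152163161-152163220 (mm9) and had a large increase. It stood at -2.03, -2.36, -1.71 and -1.92 at 0 h and at 0.10, 1.87, 1.09 and 0.79 at 48 h. The groups were far apart although the 48 h arrays spread over almost 2 units, and it rose by 2.97 ± 0.38 (limma adjusted p = 0.00355). Asns, which makes asparagine, stood at 3.51, 3.40, 3.83 and 3.81 at 0 h and at 4.52, 5.16, 4.55 and 4.72 at 48 h, a 2.14-fold rise (SE 0.16 on the log2 scale; limma adjusted p = 0.00735). Slc7a11, the light chain of the cystine and glutamate exchanger, moved the other way. It stood at -3.45, -3.63, -3.45 and -3.37 at 0 h and at -4.44, -4.25, -4.08 and -4.24 at 48 h. It fell by 0.78 ± 0.17 (limma adjusted p = 0.0483), and this call was lost in each of the 8 fits that left out an array.

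Ddit3, which encodes the factor CHOP, rose by 0.58, and Atf4 itself, mainly controlled at translation, had a change of 0.39 ± 0.10 that did not pass (limma adjusted p = 0.0963). The serine pathway enzymes Phgdh and Psat1 had changes of 0.07 and 0.15. Ddit3 was lost in 7 of 8 fits that left out an array, being called without 48 h replicate 3, and Trib3, Asns, Aars, Mthfd2 and Shmt2 were called in all 8. With the slide as a block Ddit3 and Slc7a11 were lost.

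Aars, alanyl-tRNA synthetase, had levels of 2.73, 2.76, 2.74 and 2.92 at 0 h and of 3.37, 3.75, 3.38 and 3.51 at 48 h. It rose by 0.72 ± 0.10 (limma adjusted p = 0.00478). Sars and Yars, the enzymes for serine and tyrosine, rose by 0.63 and 0.49, but another probe of Sars gave 0.17 and other probes of Yars 0.03 to 0.47. Leaving out single arrays kept 3 to 6 of the 10 synthetase calls, fewest without 0 h replicate 1, 2 or 3 or 48 h replicate 2 or 4, and Tars and Hars were lost in all 8 fits. With the slide as a block 2 of the 10 held, Aars and Yars, and with the mean of a gene's probes 3 held, Aars, Farsb and Nars. Among mitochondrial synthetases 2 of 17 rose, against 1.06% of all genes, with a median of 0.19. Both calls were lost in 6 of the 8 fits and with the slide as a block.

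In the folate cycle, Mthfd2 and Shmt2, which act in mitochondria, stood out. Mthfd2 had levels of 0.85, 0.73, 0.76 and 0.71 at 0 h and of 1.45, 1.93, 1.58 and 1.62 at 48 h, a rise of 0.88 ± 0.11 (limma adjusted p = 0.00256). Shmt2, which takes a carbon unit from serine, rose by 0.88 ± 0.10 (limma adjusted p = 0.00222), while its other probe gave 0.46. Slc19a1, the folate carrier, rose by 0.41, but its other probe gave -0.34. It was lost in all 8 fits that left out an array, in which 2 to 4 of the 7 calls of the list held. With the slide as a block 2 held, Mthfd2 and Shmt2, and with the mean of a gene's probes 2 held and Shmt2 was lost.

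Several raised genes belong to none of these pathways. The apolipoprotein L family, a cluster of genes on chromosome 15, had 4 of 8 measured members raised, against 1.06% of all genes. None was lowered, and the median was 0.87. Apol10a had levels of -0.10, -0.47, -0.34 and 0.13 at 0 h and of 2.09, 2.07, 2.44 and 1.85 at 48 h, and it rose by 2.31 ± 0.23 (limma adjusted p = 0.000696). Apol11b rose by 1.60, Apol10b by 1.64 and Apol8 by 0.87. Apol10b was lost without 0 h replicate 2 or 3 or 48 h replicate 1 or 2, with adjusted p up to 0.0865. The family was added after values were seen, and its members are close copies that probes may not separate, which was not tested.

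Nacad, which encodes a relative of the nascent chain complex, stood at -4.06, -4.16, -4.28 and -4.42 at 0 h and at -2.04, -1.68, -2.01 and -2.17 at 48 h, a rise of 2.25 ± 0.12 (limma adjusted p = 1.22e-05). Its change at 24 h was 0.94, and the difference between 24 and 48 h was not tested for this gene or the next ones. Mmel1, a membrane metalloendopeptidase, and Ctsf, the lysosomal protease cathepsin F, likewise had changes of 1.48 and 1.34 at 48 h beside 0.67 and 0.59 at 24 h. Plek2, a pleckstrin of erythroblasts, had 2.08 beside 2.07, and C2cd4a had 2.73 beside 2.83. Arhgdig, which holds small GTPases in their inactive form, had 2.46 beside 3.01, and Mgp, an inhibitor of calcification, 1.51 beside 1.96.

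The 20 largest increases also included C1qtnf4 (1.51), Adamtsl5 (1.27), Nrip3 (1.27), Fam124a (1.19), the lipocalin Apod (1.19) and Mt2 (1.15). Mt2, a metallothionein that binds zinc and copper, had levels of 3.98, 3.89, 4.04 and 3.97 at 0 h and of 5.04, 5.25, 5.11 and 5.09 at 48 h. The groups did not overlap, and the change was 1.15 ± 0.11 (limma adjusted p = 0.000547). Mt1 had a change of 0.54 that was not called. Another probe of Adamtsl5 gave 0.64. Apod kept its call only without 48 h replicate 3 (adjusted p up to 0.115), and Fam124a lost it without 48 h replicate 2 (0.0543).

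Of genes not above background at 0 h and above it on all arrays at 48 h, Ankrd36 was at least 8.05-fold higher, Trim15 at least 3.92-fold, and Hs6st2 at least 1.77-fold. Gng13, a G protein subunit above background on none of the arrays at 0 h and on 3 of 4 at 48 h, was at least 1.43-fold higher. The probes of these genes likewise passed the filter on dim probes only through groups of bled mice. Another probe of Ankrd36 gave a change of 1.12. Peroxiredoxin and glutathione genes, which remove peroxides, had 4 of 14 raised, against 1.06% of all genes. Among them were Prdx2 (0.59), abundant in red cells, and Prdx3 (0.52). That family was added after values were seen, and 0 to 3 of its 4 calls held when an array was left out, none of them without 0 h replicate 1, 2 or 3 or 48 h replicate 1, 2 or 4, and none with the slide as a block.

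**Figure D3:**
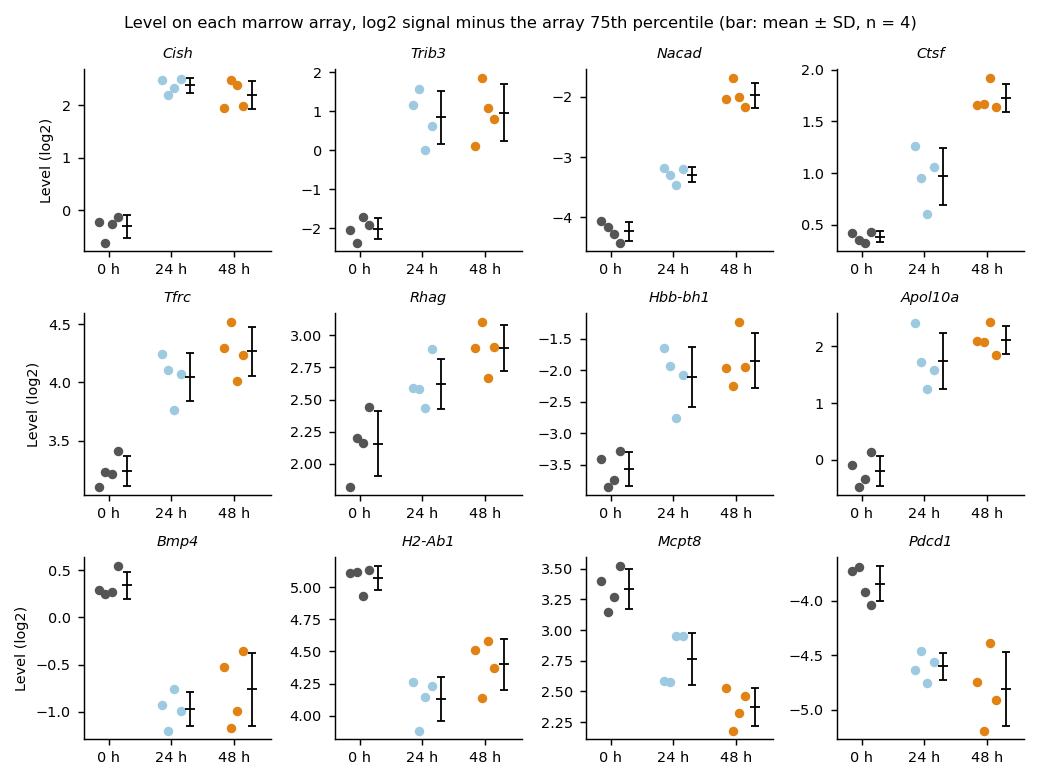
Level of 12 genes on each marrow array (log2 signal minus the array 75th percentile, vertical axis) at 0, 24 and 48 h, with mean ± SD (n = 4) beside the points; the vertical scale differs between panels. In all 12 panels the arrays at 48 h do not overlap those at 0 h, with Cish moving from between -0.61 and -0.12 to between 1.95 and 2.47. The 12 were picked from called genes, of which 262 of 264 had separated groups, so this follows from the choice. Of all genes tested, 7.93% were separated upwards and 4.59% downwards.

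Among the lowered genes, those of basophils and mast cells were the most frequent by share of a list. Of 9 measured, 4 fell and none rose, against 0.173% and 1.06% of all genes, and the median was -0.59. Basophils are rare granulocytes that carry the IgE receptor. Mcpt8, a protease specific to basophils, is read by a probe at chr14:56701075-56701134 (mm9). It stood at 3.40, 3.14, 3.27 and 3.53 at 0 h and at 2.52, 2.18, 2.32 and 2.46 at 48 h. It fell by 0.96 ± 0.13 (limma adjusted p = 0.00408), with a change of -0.57 at 24 h. Prss34, another basophil protease, stood at 3.96, 3.73, 3.70 and 4.07 at 0 h and at 3.05, 2.80, 3.10 and 3.05 at 48 h, a change of -0.86 ± 0.14 (limma adjusted p = 0.0152). Cd200r3, an activating receptor, fell by 0.78 and Ms4a2, the beta chain of the IgE receptor, by 0.58. Cpa3 (-0.59) and Fcer1a (-0.63) did not pass, and neither did Hdc, the histamine-forming enzyme, whose groups overlapped (-0.41).

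The mean of the list was lower on each 48 h array than on any 0 h array. Without 0 h replicate 1 or 48 h replicate 2, Prss34 and Ms4a2 were lost, and without 48 h replicate 1 Ms4a2 was lost, with adjusted p up to 0.0712. All 4 calls held with the slide as a block. With the mean of a gene's probes Cd200r3 and Ms4a2 were lost (adjusted p up to 0.362), although their other probes gave -0.62 and -0.72. The list median was -0.75, -0.60 and -0.54 within slides 1, 2 and 3. At 24 h it was -0.43.

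Upstream windows of a raised erythroblast gene and of lowered basophil genes are shown because both hold the letters AGATAA, a core of the site of GATA factors, GATA1 in erythroblasts and GATA2 as well in basophils and mast cells. The conventions are those given above, so TTATCT marks a match on the opposite strand.
Icam4, chr9:21029182-21029431, plus strand: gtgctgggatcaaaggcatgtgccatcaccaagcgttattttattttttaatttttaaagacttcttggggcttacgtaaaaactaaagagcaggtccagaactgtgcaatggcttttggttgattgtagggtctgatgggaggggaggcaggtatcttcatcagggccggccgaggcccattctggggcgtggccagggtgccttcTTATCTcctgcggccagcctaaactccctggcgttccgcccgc
Ms4a2, chr19:11623720-11623969, minus strand: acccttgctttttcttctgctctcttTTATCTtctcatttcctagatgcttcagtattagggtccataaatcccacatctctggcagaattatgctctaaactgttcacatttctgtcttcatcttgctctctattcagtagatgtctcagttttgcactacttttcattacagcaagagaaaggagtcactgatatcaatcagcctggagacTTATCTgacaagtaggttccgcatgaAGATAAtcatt
Prss34, chr17:25298144-25298393, plus strand: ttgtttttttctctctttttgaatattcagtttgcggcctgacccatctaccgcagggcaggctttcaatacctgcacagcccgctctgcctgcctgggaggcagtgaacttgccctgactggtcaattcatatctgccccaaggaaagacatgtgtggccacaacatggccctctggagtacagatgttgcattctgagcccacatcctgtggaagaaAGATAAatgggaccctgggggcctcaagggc

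The letters began 43 bases before the start in Icam4, 224, 37 and 11 in Ms4a2, and 31 in Prss34. On both strands they were present in 6.78% of all windows, in 12.1% of those of raised genes and in 8.57% of those of lowered genes. That last share is 3 of 35 windows, those of the basophil genes Cd200r3, Ms4a2 and Prss34. Of the genes with a window, 5 of 8 on the basophil list, 6 of 15 on the early erythroblast list and 1 of 10 on the haem list held them. Among called genes with a window these numbers were 3 of 4, 1 of 4 and 0 of 3. These are counts of genes, while the percentages are shares of windows. The letters TTCNNNGAA, the STAT motif, were in 6.18% of all windows and 8.04% of those of raised genes, and the Cish window held none.

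Genes of MHC class II, by which B cells, dendritic cells and macrophages present antigen, had changes below 0 in 11 of 11. Their median was -0.59, 2 fell, against 0.173% of all genes, and 8 had separated groups, against 4.59%. H2-Ab1, a beta chain, stood at 5.11, 5.12, 4.93 and 5.13 at 0 h and at 4.52, 4.13, 4.58 and 4.37 at 48 h. It fell by 0.67 ± 0.12 (limma adjusted p = 0.0184). H2-Eb2 fell by 1.07 ± 0.22 (limma adjusted p = 0.0460), but its probe was not above background on all 12 marrow arrays. H2-Aa and Cd74, the invariant chain, had changes of -0.46 and -0.59 and did not pass. H2-Eb2 was lost in all 8 fits that left out an array, and H2-Ab1 without 0 h replicate 1 or 2 or 48 h replicate 2 or 4 (adjusted p up to 0.0760). With the slide as a block H2-Eb2 alone was lost, as with the mean of a gene's probes. At 24 h the list median was -0.93, and within the 3 slides at 48 h it was -0.50, -0.57 and -0.55.

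T cell genes had a median change of -0.48, with 19 of 20 below 0 and 12 separated downwards, against 4.59% of all genes. Of the 20, 1 was called, Pdcd1, against 0.173% of all genes lowered. Pdcd1, an inhibitory receptor of activated T cells, stood at -3.72, -3.68, -3.92 and -4.03 at 0 h and at -4.75, -5.19, -4.39 and -4.91 at 48 h. It fell by 0.97 ± 0.15 (limma adjusted p = 0.0117). Lck and Cd4, defining T cell genes, had changes of -0.16 and -0.05, and Ccr7, which guides cells to lymph nodes, one of -0.80. Gimap7, a GTPase of lymphocytes that is not on the list, fell by 0.81, and its call was lost in all 8 fits without an array.

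B lineage genes had negative medians but no call: -0.39 for pro-B and pre-B cells (15 genes), -0.43 for mature B cells (19) and -0.39 for plasma cells (9). Of these, 15, 18 and 6 lay below 0, and 4, 2 and 2 were separated downwards, against 4.59% of all genes. Their values spread widely between arrays. Vpreb1, part of the surrogate light chain, stood at 2.93, 3.43, 3.30 and 3.82 at 0 h and at 2.92, 2.46, 1.71 and 2.25 at 48 h. These values do not overlap, but the nearest arrays almost meet, and the change of -1.03 ± 0.29 did not pass (limma adjusted p = 0.110). Within slide 1 the pro-B and pre-B median was 0.13 and the mature B median -0.05, against -0.52 and -0.62 on slide 2 and -0.68 and -0.64 on slide 3.

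**Figure D4:**
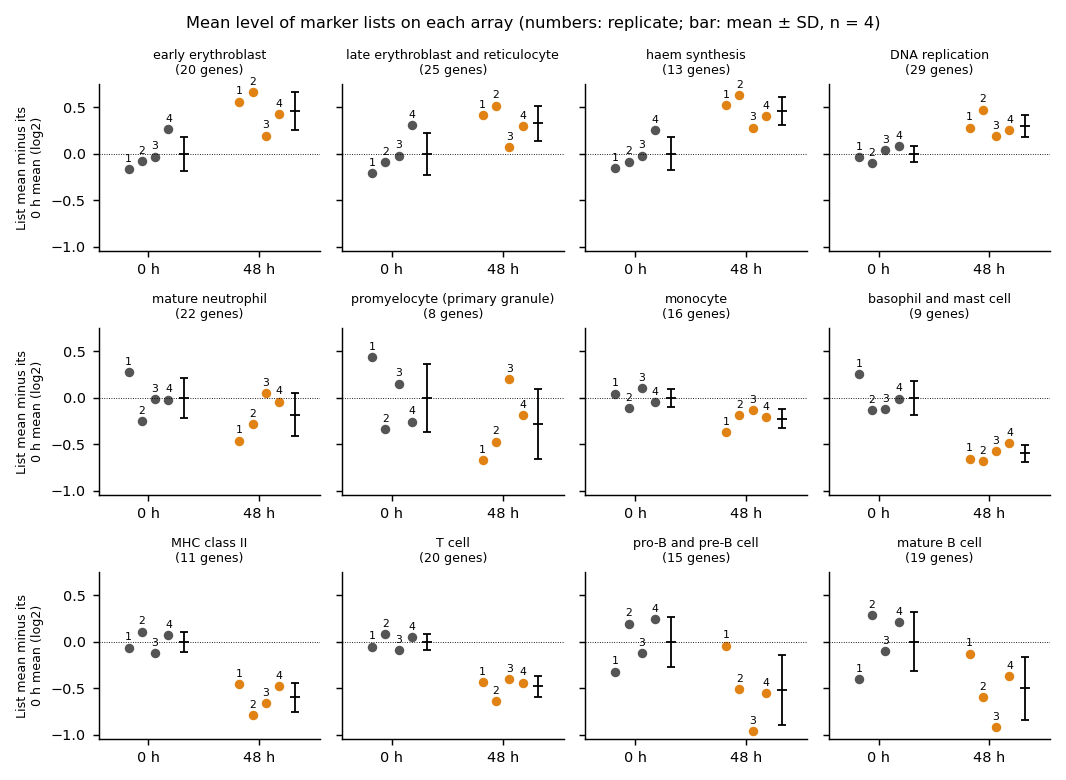
Mean level of 12 marker lists on each array (log2, minus the mean of the list at 0 h, vertical axis) at 0 and 48 h, with replicate numbers at the points and mean ± SD (n = 4) beside them. Arrays of the 2 times do not overlap for haem synthesis, DNA replication, monocyte, basophil, MHC class II and T cell lists, and overlap for both erythroblast lists, the granulocyte lists and the B cell lists.

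Genes of granulocytes and their precursors showed no call. The medians were -0.30 for promyelocyte genes (8), -0.21 for myelocyte genes (13), -0.21 for mature neutrophil genes (22) and -0.31 for eosinophil genes (10), and no member of the 4 lists had separated groups. Changes lay below 0 for all promyelocyte, myelocyte and eosinophil genes and for 18 of the 22 neutrophil genes. S100a8 and S100a9, very strongly expressed in neutrophils, both had changes of 0.01, and Mpo, the peroxidase of promyelocytes, one of -0.20. Within the slides, the promyelocyte median ran from -0.71 on slide 1 to 0.13 on slide 3. The early erythroblast median was 0.68, 0.44 and 0.12 on slides 1, 2 and 3, and the late erythroblast median 0.66, 0.37 and 0.05.

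Monocyte genes had a median of -0.22, with all 16 below 0 and 7 separated downwards, against 4.59% of all genes. Treml4 was the 1 called, at -0.44, against 0.173% of all genes lowered. It was called without 0 h replicate 1 and lost in the 7 other fits that left out an array. Macrophage (-0.24), natural killer cell (-0.24) and dendritic cell genes (-0.13) had no call. Of these, 18 of 19, 14 of 14 and 7 of 9 lay below 0, and 4, 2 and 1 were separated downwards. Hmox1, the macrophage enzyme that breaks down haem, had a change of -0.73. The megakaryocyte median was 0.14, changed sign in 1 of 21 alternatives and reached 0.50 within slide 2 against -0.14 and -0.13 on the others. Stem and progenitor genes had a median of 0.03 without a settled sign. Of these, Mllt3, a chromatin reader that maintains stem cells and is also expressed in erythroid cells, rose by 0.91 ± 0.11 (limma adjusted p = 0.00324), but its other probe gave 0.00 and the mean of both did not pass (adjusted p = 0.0776).

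The largest decreases included secreted factors and matrix proteins. Bmp4, a growth factor that drives stress erythropoiesis in the spleen, is read by a probe at chr14:47003391-47003450 (mm9). It stood at 0.29, 0.24, 0.27 and 0.55 at 0 h and at -0.53, -1.17, -0.99 and -0.35 at 48 h. The groups were separated by more than 0.5, and the signal fell to 0.466 times its 0 h level (SE 0.17 on the log2 scale; limma adjusted p = 0.0112). Its log2 change at 24 h was -1.31. Gas6, a ligand of the TAM receptors that enhances the response of erythroblasts to erythropoietin, stood at 3.99, 4.23, 4.18 and 4.23 at 0 h and at 3.51, 3.24, 3.32 and 3.66 at 48 h. It fell by 0.72 ± 0.14 (limma adjusted p = 0.0314). These were the 2 lowered genes of the 8 on the stress erythropoiesis list, on which none was called higher. Of all genes, 0.173% were lowered and 1.06% raised. On the list 1 gene lay above 0, by 0.63, with separated groups but no call. Kitl, the stem cell factor, had a change of -0.22.

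Ltbp2, which binds to fibrillin in the matrix, fell by 0.94 ± 0.13 (limma adjusted p = 0.00497), and Fstl1, a secreted glycoprotein, by 0.72, though its other probes gave -0.76 and -0.09. Bcat1, which transaminates branched-chain amino acids, fell by 1.07, with -0.74 and -0.44 from other probes, and Klhl13 by 0.86. Bcat1 and Fstl1 kept their call only without 0 h replicate 1 or 48 h replicate 1, Klhl13 only without 0 h replicate 1 and Gas6 only without 48 h replicate 4, with adjusted p up to 0.139 otherwise. Bmp4 and Ltbp2 kept theirs in all 8 fits. Bone-lining stroma and osteoblast genes as a list had 20 measured, a median of -0.41 and no call. Slc16a4, named after its values were seen, fell by 1.42, the largest decrease of a called gene with a plain name. Its probe was above background on only 2 of the 4 arrays at 48 h, so this size rests partly on background signal. The Slc16a4 call did not hold in all 8 fits.

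The lists for glycolysis and hypoxia (median -0.14), cholesterol synthesis (0.11), interferon response (-0.06), glucocorticoid response (-0.13), circadian clock (0.02), endothelium (0.05), adipocytes (-0.16) and osteoclasts (-0.09) had no call. Among the 15 immediate early genes 1 rose, Ier3, by 0.76, against 1.06% of all genes. Its call was kept without 0 h replicate 1 or 48 h replicate 1 and lost in the 6 other fits and with the slide as a block.

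The size of the shifts differed between slides. The median of integrated stress response genes was 0.29, 0.36 and 0.20 within slides 1, 2 and 3, that of cytosolic tRNA synthetases 0.29, 0.41 and 0.34, that of haem synthesis 0.60, 0.51 and 0.15, and that of T cell genes -0.45, -0.56 and -0.48. Slides 1, 2 and 3 held 2, 1 and 1 arrays at 0 h and 1, 2 and 1 at 48 h.

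The liver of the same design offers a comparison of tissues. The sample labels do not name the mouse, so whether liver and marrow shared mice was not established. The interaction test treated the arrays as independent and did not pair the tissues by mouse. Over 18227 genes measured in both, the change in marrow exceeded that in liver for 131 genes (0.719%) and was below it for 13 (0.0713%) by limma's interaction test at an adjusted p below 0.05. The 131 became 26 without 48 h replicate 2, 27 without 0 h replicate 2, and 53 to 65 without 0 h replicate 1 or 3 or 48 h replicate 1. Of 180 genes raised in marrow and measured in both, 68 differed from liver, and their median change was 0.56 in marrow and -0.01 in liver. Of 22 lowered genes, 1 differed. Since these genes were chosen by the marrow change, the medians describe that choice. Among the 32 genes named for the largest changes, 16 were measured in both tissues and 5 differed, among them the following. Trib3 was 2.82 higher in its marrow change than in its liver change of 0.15 (limma adjusted p = 0.0200). Ctsf differed by 1.15, Fam124a by 1.29 and Apod by 1.26, with liver changes of 0.19, -0.10 and -0.08.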

How the data were processed

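Cy3 spot intensity was deposited by the authors as scanner output of Agilent Feature Extraction 10.10.1.1, per the file headers, background subtracted with no scaling across arrays. A second deposit by the authors, a log2 table of processed values made with limma per the submitters' processing notes, served as an alternative. Here log2 intensity minus the 75th percentile of each array was used, without control and outlier spots. Spots of a probe were averaged, probes were kept that the scanner software marked well above background on every array of some marrow group, and the brightest kept probe stood for a gene. Whether probes lie in exons or untranslated regions was not analysed here. The 12 marrow arrays were fitted together (limma 3.58.1, R 4.3.3; lmFit, eBayes, two-sided), with Benjamini-Hochberg adjustment over 21381 genes. The fit was tested on simulated data. An "at least" fold sets the mean at 48 h against a floor on each 0 h array: the lowest signal of any probe marked above background there, or the probe's signal if higher.

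Named genes were the 20 largest increases and 12 largest decreases among called, separated genes above background on all 8 arrays, those above background at 48 h but on no array at 0 h, every called list member, and up to 4 bright members per lineage list. Others are said to have been chosen later, as were 8 gene families and the printed promoters. Members and lists were chosen with earlier results of these data known. Probe positions are mm9, per the file headers. Lists are described by counts and medians, without a test. Some genes are counted but not reported here.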

Additional observations from a re-analysis of the deposited data

Results flagged for a closer look

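Among 82 named genes, 12 of 164 groups of 4 arrays held an array that stood apart from the other 3, where chance gives about 1 in 20. At 48 h, replicate 3 was high for Ctsf (1.92, others 1.64 to 1.66) and low for Add2 (1.20, others 1.54 to 1.57). Replicate 2 at 48 h was high for Mllt3 (1.24, others 1.01 to 1.03), Hars (1.95) and Prdx3 (4.15), and low for Prss34 (2.80, others 3.05 to 3.10). At 0 h, replicate 1 was low for Fam124a (-2.69). Replicate 2 at 0 h was high for Gimap7 (-2.88, others -3.32 to -3.29) and low for Nars2 (-2.14). Replicate 3 at 0 h was low for H2-Ab1 (4.93, others 5.11 to 5.13). Replicate 4 at 0 h was high for Bmp4 (0.55, others 0.24 to 0.29) and Prdx3 (3.50).

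The change at 48 h differed between marrow and liver, by limma's interaction test, for Trib3 (marrow minus liver 2.82), Ctsf (1.15), Fam124a (1.29) and Apod (1.26). For all 4 the marrow arrays at 48 h lay above the 4 at 0 h. The rule for naming the largest increases requires this. The interaction test did not pair the tissues by mouse.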

How the results depend on the processing

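Against 227 raised and 37 lowered genes, the counts were 92 and 8 without a filter on dim probes, 101 and 15 with the slide as a block, 87 and 11 with the replicate number as a block, 341 raised with trended robust variance, 620 and 191 with array weights, 21 lowered with the mean of a gene's probes, and 86 lowered without 24 h replicate 2. The replicate numbers did not pair the mice: deviations of same-numbered samples at 0 and 48 h correlated at -0.17, -0.25, 0.14 and 0.00. Leaving out each array gave 89 to 207 raised, 9 to 29 lowered, 1779 to 2862 genes separated upwards and 1205 to 1651 downwards. The genes with a larger change in marrow than liver numbered 73 with quantile normalisation and 26 to 144 without single arrays, and those with a smaller one 4 to 11, or 20 without 24 h replicate 2. The stem and progenitor median of 0.03 was -0.040 to 0.055 without single arrays. None of the 81 called genes named by the rule changed sign under any of the 21 alternatives. The globin family median of 0.04 turned negative in 2 of them. In 55 raised and 4 lowered genes the call held under all 21 alternatives. The cause of each difference was not tested.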
